A study of Homo sapiens with 12 samples.

Results

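The RNAs described here are small non-coding RNAs of RNA processing: the RNA components of RNase MRP and RNase P, the spliceosomal RNAs, and the small Cajal body RNAs (scaRNAs). They were taken by name from 2 expression tables of 25369 rows each. A row counted if its symbol began with SCARNA, RN7S, or RNU and a digit, or was RMRP or RPPH1. The rule found the same 56 rows in both tables: 24 SCARNA rows, 30 RNU rows, RMRP and RPPH1, and 0 rows that began with RN7S. The rows described are those with a mean of at least 1 FPKM (fragments per kilobase of transcript, scaled to the size of the library) over the 6 libraries of a line, which were 24 in TMD8 and 28 in OCI-Ly7. All 24 of TMD8 were also among those of OCI-Ly7. A further 22 rows, among them RNU5D-1, RNU5E-1, RNU5F-1 and most of the 22 RNU6 pseudogenes, were listed at 0 in every library of each line. Just inside the minimum lay SCARNA9L at a mean of 1.98 FPKM in TMD8 and RNU6-72P at 1.19 in OCI-Ly7. Just outside it lay SCARNA27 at 0.723 in TMD8 and SCARNA11 at 0.98 in OCI-Ly7.

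TMD8 is a diffuse large B cell lymphoma line of the activated B cell (ABC) class and OCI-Ly7 one of the germinal centre B cell (GCB) class. Both expressed a doxycycline-inducible single guide RNA against PRMT5, the arginine methyltransferase, and were cultured in 20 ng/ml doxycycline for 0, 3 or 6 days; each line and time gave 2 libraries, so that there were 12. The guide and its inducible construct were in every group, day 0 included, and no line with a guide against another target was used here, so the effects of doxycycline, of time in culture and of the guide cannot be told apart. Whether a line was 1 clone, and whether the 2 libraries of a day came from separate cultures, is not given in the sources used here, so p-values measure the spread between these libraries, which may be technical.

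The B cell genes CD79A, CD79B and MS4A1 were at 41.9 FPKM or more in all 12 libraries, and CD3E, CD3D and LYZ were listed at 0. PRMT5 was lower in each treated library than in either day 0 library of its line, at 41.3 to 54.7 FPKM against 60.5 and 64.8 in TMD8 and at 19.2 to 32.1 against 37.9 and 46.9 in OCI-Ly7. Such a lower level was shared by 83.8% of all tested TMD8 rows on day 3 and 73.4% on day 6, and by 41.1% and 48.6% of those of OCI-Ly7. On the log2(FPKM + 1) scale PRMT5 changed by -0.58 (limma, adjusted p = 0.0212) and -0.26 (adjusted p = 0.0262) in TMD8, and neither passed once the libraries were scaled by their median ratio (-0.28, adjusted p = 0.147, and 0.10, adjusted p = 0.201), so the table does not separate it from the common shift there. In OCI-Ly7 it changed by -0.45 on day 3 (adjusted p = 0.618) and by -1.04 on day 6 (adjusted p = 0.0345), the latter also after scaling (-0.89, adjusted p = 0.0284). In single-exon genes the product of FPKM and length piled up at whole multiples, from which the depth of each library was estimated. It was 13800000 to 30000000 fragments in TMD8 and 10200000 to 17200000 in OCI-Ly7. The day 0 libraries were the deepest of each line, at 25600000 and 30000000 in TMD8 and 13300000 and 17200000 in OCI-Ly7. Treated libraries had 13800000 to 18800000 in TMD8 and 10200000 to 12100000 in OCI-Ly7. In bulk RNA, a change in RNA per cell and a change in the share of cells that make it cannot be told apart.

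RNase MRP and RNase P are related ribonucleoproteins that share most of their proteins. RNase MRP takes part in cutting the precursor of ribosomal RNA, and RNase P removes the leader from precursor transfer RNA. The U11, U12, U4atac and U6atac RNAs belong to the minor spliceosome, which removes a rare class of introns; U11, U12 and U4atac carry a ring of Sm proteins, some of which PRMT5 methylates, while U6atac carries LSm proteins. The scaRNAs guide methylation and pseudouridylation of spliceosomal RNAs in Cajal bodies, and most are cut from the introns of host genes. The mature forms of these RNAs normally lack a poly(A) tail, and the TruSeq RNA kit that the labels name selects polyadenylated RNA in its standard procedure. The labels do not state a selection step, and the FPKM below are what the libraries kept of these RNAs.

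The catalytic RNAs RMRP and RPPH1 are shown first because they held most of the signal of the group. The sequences come from GENCODE v29 on GRCh38. RMRP lies at chr9:35657751-35658018 on the minus strand, with 268 nt, and RPPH1 at chr14:20343075-20343407 on the minus strand, with 333 nt, of which the first 300 are printed (chr14:20343108-20343407). No gene with a row in the tables encloses either of them on the same strand. The capitals mark the longest run of letters that both share, of 9 nt.
RMRP: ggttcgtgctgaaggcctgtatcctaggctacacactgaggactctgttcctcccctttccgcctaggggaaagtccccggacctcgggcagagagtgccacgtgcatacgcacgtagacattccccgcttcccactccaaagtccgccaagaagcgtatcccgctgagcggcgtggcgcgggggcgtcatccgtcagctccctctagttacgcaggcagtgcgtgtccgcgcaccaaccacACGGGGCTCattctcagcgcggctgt
RPPH1: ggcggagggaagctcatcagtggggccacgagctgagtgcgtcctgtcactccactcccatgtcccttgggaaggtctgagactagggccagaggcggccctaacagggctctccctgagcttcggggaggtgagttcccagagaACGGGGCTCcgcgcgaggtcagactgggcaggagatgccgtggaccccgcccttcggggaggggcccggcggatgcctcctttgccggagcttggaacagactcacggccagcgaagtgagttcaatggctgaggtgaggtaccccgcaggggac

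The 4 minor spliceosomal RNAs are shown because they were the only spliceosomal RNAs above the minimum, apart from the pseudogene RNU6-72P. RNU11 (U11) is at chr1:28648600-28648733 on the plus strand, RNU12 (U12) at chr22:42615244-42615393 on the plus strand, RNU4ATAC (U4atac) at chr2:121530881-121531007 on the plus strand and RNU6ATAC (U6atac) at chr9:134164439-134164564 on the minus strand. The capitals mark A, then 4 to 6 T, then G, the letters of the Sm site, searched on the transcript strand.
RNU11: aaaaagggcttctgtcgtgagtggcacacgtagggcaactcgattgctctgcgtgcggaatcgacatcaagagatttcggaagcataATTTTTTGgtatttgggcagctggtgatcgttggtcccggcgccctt
RNU12: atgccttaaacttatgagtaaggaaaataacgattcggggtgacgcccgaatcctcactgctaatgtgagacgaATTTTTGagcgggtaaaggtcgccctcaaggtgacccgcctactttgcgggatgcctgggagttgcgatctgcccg
RNU4ATAC: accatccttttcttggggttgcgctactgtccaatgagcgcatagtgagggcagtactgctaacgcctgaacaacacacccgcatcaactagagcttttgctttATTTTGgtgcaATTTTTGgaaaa
RNU6ATAC: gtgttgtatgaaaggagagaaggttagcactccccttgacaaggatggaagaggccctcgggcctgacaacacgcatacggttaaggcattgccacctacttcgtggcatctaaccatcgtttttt
The Sm letters were present in RNU11, RNU12 and RNU4ATAC, the last with 2 matches, and in none of the other 23 rows above the minimum that matched a transcript. They were found in 10.6% of 2508 annotated small RNA transcripts (snoRNA, scaRNA, snRNA and ribozyme) of 79 to 420 nt. RNU6ATAC instead ended in TTTT, as 20.9% of those transcripts did.

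The scaRNAs shown are those on which the results turn. SCARNA16 is at chr17:77089307-77089493 and SCARNA21 at chr17:7906122-7906260, both on the plus strand. In these 2 the capitals mark TGAG, the letters of the Cajal body box, and ACA placed 3 bases before the end, the mark of guides for pseudouridylation; SCARNA21 holds no TGAG.
SCARNA16: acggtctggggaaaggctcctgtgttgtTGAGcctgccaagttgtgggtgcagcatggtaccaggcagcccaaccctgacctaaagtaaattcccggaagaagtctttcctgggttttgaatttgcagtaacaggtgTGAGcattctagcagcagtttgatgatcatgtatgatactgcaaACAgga
SCARNA21: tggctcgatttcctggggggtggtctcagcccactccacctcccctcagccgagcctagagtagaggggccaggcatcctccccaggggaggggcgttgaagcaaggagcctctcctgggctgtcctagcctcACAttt
SCARNA5 is at chr2:233275727-233276002, SCARNA9 at chr11:93721513-93721865 (353 nt, the first 300 printed, chr11:93721513-93721812) and SCARNA17 at chr18:49814133-49814276, all on the plus strand. In these 3 the capitals mark TGATGA and CTGA, the letters of the C and D boxes of guides for methylation.
SCARNA5: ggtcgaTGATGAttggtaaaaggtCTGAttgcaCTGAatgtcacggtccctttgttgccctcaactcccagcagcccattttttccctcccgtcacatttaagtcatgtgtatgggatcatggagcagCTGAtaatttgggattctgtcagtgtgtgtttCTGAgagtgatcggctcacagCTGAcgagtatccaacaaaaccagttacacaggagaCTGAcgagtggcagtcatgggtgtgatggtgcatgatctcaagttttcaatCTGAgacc
SCARNA9: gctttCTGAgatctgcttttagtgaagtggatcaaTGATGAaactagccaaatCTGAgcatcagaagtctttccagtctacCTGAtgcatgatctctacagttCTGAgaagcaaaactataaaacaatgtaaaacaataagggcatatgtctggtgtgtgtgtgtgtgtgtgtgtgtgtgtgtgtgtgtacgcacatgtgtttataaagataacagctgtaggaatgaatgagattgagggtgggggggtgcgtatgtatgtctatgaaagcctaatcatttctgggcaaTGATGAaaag
SCARNA17: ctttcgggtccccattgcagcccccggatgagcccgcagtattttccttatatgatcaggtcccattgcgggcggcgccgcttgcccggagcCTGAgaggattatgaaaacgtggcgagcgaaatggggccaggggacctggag
SCARNA17 held CTGA and no TGATGA. Among the 19 scaRNAs with a matched transcript and a mean of at least 1 FPKM in either line, 10 had ACA in that place, against 12.5% of the 2508 transcripts, and 10 held TGATGA, against 11.5%. TGAG was found in 15 of the 19, against 36.8%. These are matches of letters on the transcript strand and not mapped sites.

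RMRP and RPPH1 rose in TMD8 and were the most abundant rows of the group. RMRP stood at 782 and 1098 FPKM in the TMD8 libraries of day 0, at 4140 and 1958 on day 3, and at 5785 and 4917 on day 6. All 4 treated libraries were above both day 0 libraries, and the 2 libraries of day 3 differed by more than those of the other days. RMRP changed by 1.62 on the log2(FPKM + 1) scale on day 3 (SE 0.349, limma, adjusted p = 0.0245) and by 2.52 on day 6 (SE 0.349, adjusted p = 0.00346). RPPH1 stood at 189 and 308 FPKM on day 0, at 1228 and 545 on day 3, and at 1491 and 1110 on day 6, again with no overlap between treated and day 0 libraries. It changed by 1.76 on day 3 (SE 0.411, adjusted p = 0.0275) and by 2.41 on day 6 (SE 0.411, adjusted p = 0.00565). Both day 3 calls were lost under the median-ratio scaling described below (adjusted p = 0.164 for RMRP and 0.191 for RPPH1) and without either day 0 library or the first day 3 library (adjusted p up to 0.14 and 0.149), that of RPPH1 also without the second day 3 library (adjusted p = 0.0639). The estimated fragments behind RMRP were 5356 to 24378 per TMD8 library, so counting error is small beside the spread between libraries.

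In OCI-Ly7 neither of these RNAs passed the test at either day. RMRP stood at 2524 and 2181 FPKM on day 0, at 2659 and 4263 on day 3, and at 2491 and 3840 on day 6. The second library was the higher one on both treated days, and the first libraries of days 3 and 6 lay close to those of day 0. The changes were 0.52 on day 3 (SE 0.288, adjusted p = 0.618) and 0.40 on day 6 (SE 0.288, adjusted p = 0.37). RPPH1 stood at 569 and 567 FPKM on day 0, at 487 and 1227 on day 3, and at 488 and 833 on day 6, so that each treated day had 1 library below and 1 above day 0. The changes of RPPH1 were 0.44 (SE 0.461, adjusted p = 0.707) and 0.17 (SE 0.461, adjusted p = 0.824).

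The day 6 effects of both RNAs differed between the lines when the difference itself was tested over the 12 libraries. The effect in OCI-Ly7 minus that in TMD8 was -2.13 for RMRP (SE 0.521, adjusted p = 0.0205) and -2.25 for RPPH1 (SE 0.709, adjusted p = 0.0482). At day 3 the differences were -1.10 and -1.32 and did not pass (adjusted p = 0.491 and 0.506). The 2 tables were normalized apart, so levels are set side by side across lines only as values. At day 0 RMRP was at 782 and 1098 FPKM in TMD8 and at 2524 and 2181 in OCI-Ly7, and the treated TMD8 libraries, at 1958 to 5785, spanned the range of the OCI-Ly7 libraries. The ratio of RMRP to RPPH1 stayed between 3.37 and 4.43 in the TMD8 libraries and between 3.48 and 5.46 in those of OCI-Ly7.

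**Figure D1:**
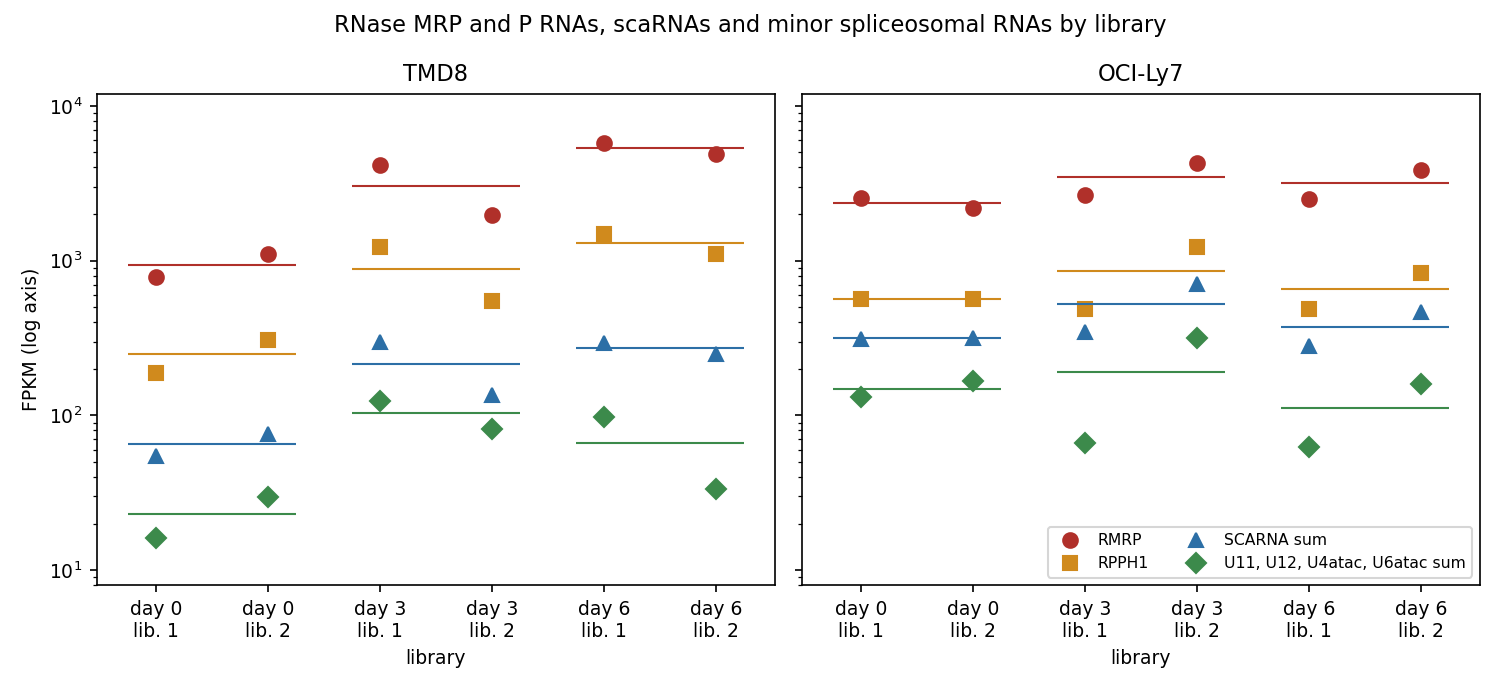
FPKM on a log axis by library for RMRP, RPPH1, the sum of the 24 SCARNA rows and the sum of RNU11, RNU12, RNU4ATAC and RNU6ATAC, in TMD8 (left) and OCI-Ly7 (right). Lines are means of the 2 libraries of a day. In TMD8 each of the 4 quantities is higher in every treated library than in both day 0 libraries; in OCI-Ly7 the second libraries of days 3 and 6 stand above the first.

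Across the group in TMD8, 17 of 24 rows rose on day 3 and 0 fell. In all rows tested in that comparison, 1.5% of 10456 were called higher (157) and 41.5% lower (4335). The median change of the 24 rows was 1.58, against -0.27 over all rows, and both day 3 libraries were above both day 0 libraries in 21 of the 24 and below them in 0, against 3.41% and 83.8% of all rows. At day 6, 16 of 24 rose and 0 fell, with 3.89% of all rows called higher (407) and 51.7% lower (5409). The median of the 24 was then 1.62 against -0.31 over all rows, and 20 lay above day 0 with no overlap and 0 below, against 7.88% and 73.4% of all rows. The rows called higher on both days include SCARNA18 and SCARNA9L. Their day 0 means were under the minimum, so the filter favoured a rise and their calls support nothing. Later counts of TMD8 rows that rose include them where they belong to the set.

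The common shift of all rows bears on these calls. Median-ratio scaling, which divides each library by the median ratio of its rows to their mean over the line, sets that shift near 0. Under it all 24 changes were positive and their median was 1.79 on day 3 and 1.85 on day 6. The number called on day 3 was then 0 by limma, with 22 of 24 at an unadjusted p under 0.05, where 0.143% of all rows were called higher (15) and 0.0765% lower (8), so every TMD8 call of day 3 given here was lost under it. At day 6 it was 14, with 15.4% of all rows called higher (1611) and 13.5% lower (1409). The day 3 count also depended on single libraries: it was 0 without the first day 0 or the first day 3 library, 1 without the second day 0 library and 5 without the second day 3 library. The day 6 count fell to 8 without the first day 0 library.

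**Figure D2:**
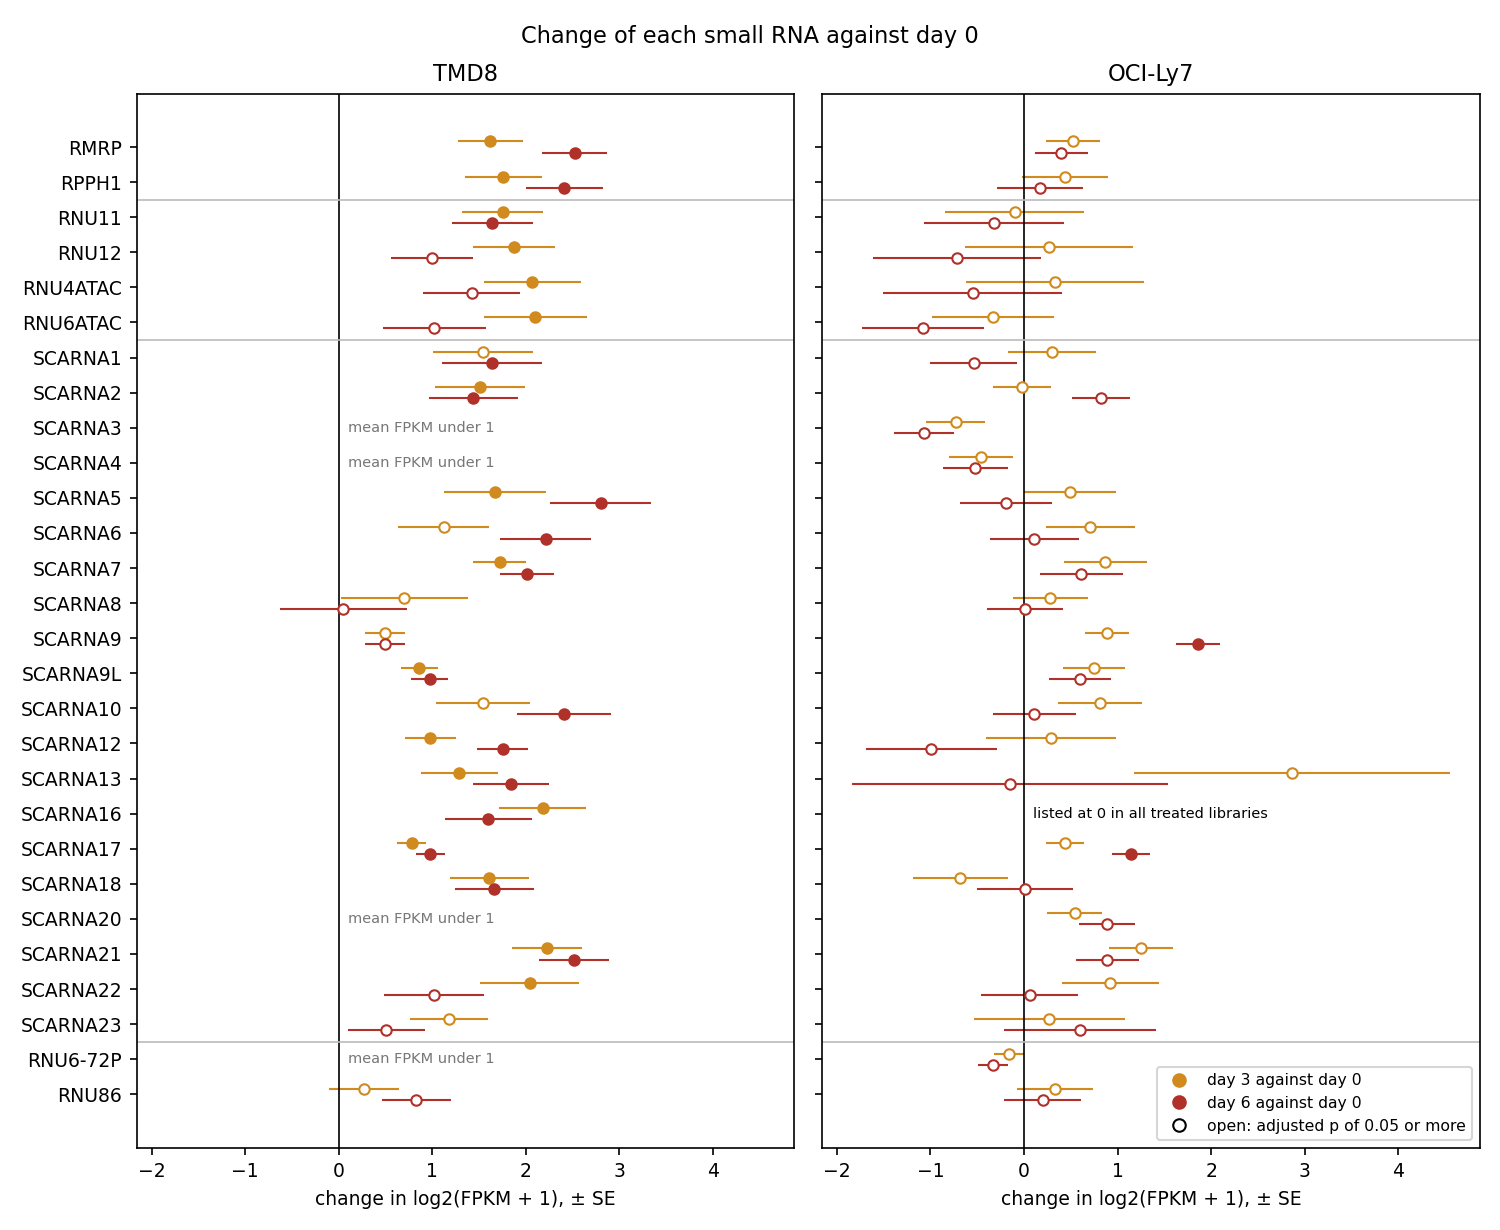
Change of each row against day 0 on the log2(FPKM + 1) scale with its standard error, for TMD8 (left) and OCI-Ly7 (right). Filled points have an adjusted p under 0.05; grey lines separate RNase MRP and P RNAs, minor spliceosomal RNAs, scaRNAs and other RNU rows. In TMD8 all points lie to the right of 0, from 0.05 to 2.80; in OCI-Ly7 they lie on both sides.

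All 4 minor spliceosomal RNAs rose in TMD8 on day 3, and 1 of the 4 passed on day 6. Of all rows, 1.5% were called higher on day 3 and 3.89% on day 6. The day 3 calls of all 4 were lost under median-ratio scaling (limma, adjusted p = 0.203 to 0.235). With 1 library left out at a time, their day 3 changes ran from 1.37 (RNU11) to 2.5 (RNU6ATAC). RNU6ATAC stood at 6.65 and 12.4 FPKM on day 0, at 53.2 and 33.7 on day 3, and at 34.8 and 10.7 on day 6. RNU4ATAC stood at 4.69 and 8.07, then 33.2 and 25.5, then 32.9 and 9.85 FPKM. In both, the second library of day 6 fell back to the range of day 0 or just above it. Their changes on day 3 were 2.10 (SE 0.549, adjusted p = 0.033) and 2.07 (SE 0.522, adjusted p = 0.031), and on day 6 they were 1.02 and 1.42 and did not pass (adjusted p = 0.156 and 0.0588). RNU12 stood at 3.01 and 5.58, then 24.3 and 12.9, then 13.6 and 6.20 FPKM, with a change of 1.87 on day 3 (SE 0.44, adjusted p = 0.0276) and of 1.00 on day 6 (adjusted p = 0.0965). RNU11 stood at 1.92 and 3.92, then 13.7 and 10.1, then 17.2 and 6.74 FPKM and passed on both days, at 1.75 (adjusted p = 0.0301) and 1.64 (SE 0.433, adjusted p = 0.021). The call of RNU11 on day 6 was lost without the first library of day 0 (adjusted p = 0.106) or of day 6 (adjusted p = 0.0532). These values rest on 6.6 to 92.9 estimated fragments per library.

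In OCI-Ly7 none of these 4 passed, and their 2 libraries of a treated day stood far apart. RNU11 stood at 67.8 and 83.7 FPKM on day 0, at 31.9 and 153 on day 3, and at 41.2 and 88.1 on day 6. RNU12 stood at 21.6 and 40.6, then 16 and 79.3, then 8.88 and 33.8 FPKM. RNU6ATAC stood at 26.7 and 29.3, then 10.5 and 45.4, then 9.30 and 17.3 FPKM. On day 3 the first library lay below and the second above both day 0 libraries in each of the 3. The changes of the 4 ranged from -0.33 to 0.33 on day 3 and from -1.08 to -0.32 on day 6. Their difference between the lines on day 6 ranged from -2.10 for RNU6ATAC (adjusted p = 0.142) to -1.72 for RNU12 (adjusted p = 0.283) and did not pass.

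Of the 17 scaRNAs above the minimum in TMD8, 11 rose on day 3 and 13 on day 6, and 0 fell. Of all rows, 1.5% were called higher on day 3 and 3.89% on day 6. After median-ratio scaling the scaRNAs called higher were 0 on day 3 and 11 on day 6. The counts include SCARNA18 and SCARNA9L, whose calls support nothing. SCARNA5, whose host is ATG16L1, had the largest change of the group on day 6. It stood at 2.67 and 4.65 FPKM on day 0, at 24.6 and 7.15 on day 3, and at 38.9 and 24.3 on day 6, with every treated library above day 0. Its change was 1.67 on day 3 (SE 0.541, adjusted p = 0.0497) and 2.80 on day 6 (SE 0.541, adjusted p = 0.00804). SCARNA21, in an intron of the chromatin remodeller gene CHD3, stood at 1.16 and 4, then 16.8 and 12.3, then 17.1 and 18.3 FPKM. It had the largest change of the group on day 3, 2.23 (SE 0.374, adjusted p = 0.0212), and changed by 2.51 on day 6 (SE 0.374, adjusted p = 0.00407). An annotated copy, SCARNA21B, is 87.9% identical to it over the longer of the pair, so reads of the pair may be shared, and SCARNA18 has a copy, SCARNA18B, that is 88.1% identical.

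The most abundant scaRNAs of TMD8 were SCARNA12 and SCARNA10, both guides for U5. SCARNA10, which carries both classes of box and lies in the condensin gene NCAPD2, stood at 7.81 and 12.1 FPKM on day 0, at 54.2 and 16.7 on day 3, and at 51.6 and 60.8 on day 6. It changed by 2.41 on day 6 (SE 0.503, adjusted p = 0.0102), while its 1.54 on day 3 lay just past the threshold and did not pass. SCARNA12 stood at 16 and 15.7, then 44.8 and 23.1, then 59.2 and 52.2 FPKM. It changed by 0.98 on day 3 (SE 0.275, adjusted p = 0.0371) and by 1.75 on day 6 (SE 0.275, adjusted p = 0.00464). SCARNA12 overlaps an annotated exon of its host PHB2, so reads of the 2 rows may be split between them.

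SCARNA16 stood at 2.14 and 3.80 FPKM on day 0 in TMD8, at 27.1 and 9.95 on day 3, and at 13.7 and 8.50 on day 6. It changed by 2.18 on day 3 (SE 0.467, adjusted p = 0.0242) and by 1.60 on day 6 (SE 0.467, adjusted p = 0.0288), on 10.2 to 70.1 estimated fragments. The day 6 call was lost without the first library of day 0 (adjusted p = 0.135) or of day 6 (adjusted p = 0.113). The other scaRNAs that passed on day 6 were SCARNA6 at 2.21, SCARNA7, a guide for U1, at 2.01, SCARNA13 at 1.84, SCARNA18 at 1.66, SCARNA1 at 1.64, SCARNA2, a guide for U2, at 1.44, SCARNA17 at 0.98 and SCARNA9L at 0.97, with adjusted p-values from 0.00369 to 0.0436. SCARNA1 and SCARNA2 missed the threshold after median-ratio scaling (adjusted p = 0.0604 and 0.0551). SCARNA18 and SCARNA9L had day 0 means of 0.437 and 0.895 FPKM and passed the minimum through their treated libraries. Their calls are a description and support nothing. The 4 that did not pass on day 6 were SCARNA22 at 1.02, SCARNA23 at 0.51, SCARNA9 at 0.49 and SCARNA8 at 0.05. SCARNA8 rested on 0.7 to 10.6 estimated fragments per TMD8 library and SCARNA23 on 2.0 to 8.0. Among those that passed, SCARNA17 rested on 2.7 to 6.6, SCARNA18 on 0 to 9.0 and SCARNA9L on 5.0 to 17.7.

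Between days 3 and 6, 0 of the 24 rows passed in TMD8, where 3.38% of all rows were called higher and 4.47% lower. At an unadjusted p under 0.05 there were 2, RMRP at 0.91 (limma, adjusted p = 0.152) and SCARNA12 at 0.77 (adjusted p = 0.132). The median of the 24 was 0.11, against -0.05 over all rows. In OCI-Ly7, 0 of 28 passed between days 3 and 6, with 3 at an unadjusted p under 0.05 (SCARNA9, SCARNA17 and SCARNA2) and 0.0999% of all rows called higher and 0.118% lower.

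In OCI-Ly7 few rows of the group moved past the test. At day 3, 0 of 28 rose and 1 was called lower, with 0.0726% of all rows called higher (8) and 0.0726% lower (8). At day 6, 2 rose and 1 was called lower, with 1.98% of all rows called higher (218) and 9.39% lower (1034). The median change was 0.33 on day 3, against -0.12 over all rows, and 0.04 on day 6, against -0.13. On day 3 both libraries lay above day 0 in 10 rows and below it in 4, against 4.58% and 41.1% of all rows. On day 6 they did so in 6 and 6, against 20.7% and 48.6%. The rows above day 0 on each of these days include SCARNA20, whose day 0 mean of 0.512 FPKM was under the minimum. The row called lower was SCARNA16 on both days; it passed the minimum only through its day 0 libraries and so had to differ. Median-ratio scaling gave the same counts of calls, with 0.0635% of all rows called higher and 0.0545% lower on day 3 and 6.71% and 8.05% on day 6.

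SCARNA9, a guide for U2 in an intron of CEP295 (the row KIAA1731), rose in OCI-Ly7. It stood at 10.9 and 15.8 FPKM on day 0, at 20.9 and 30.5 on day 3, and at 47.4 and 53.3 on day 6, and the 3 days did not overlap. Its change on day 6 was 1.86 (SE 0.236, adjusted p = 0.0345), and on day 3 it was 0.89 and did not pass (adjusted p = 0.618). In TMD8 it stood at 5.62 and 4.17, then 7.13 and 7.36, then 9.15 and 5.68 FPKM and did not pass. The day 6 effects differed by 1.36, with OCI-Ly7 the higher (SE 0.354, adjusted p = 0.0249). SCARNA9L, an annotated relative of SCARNA9, was at 2.36 and 2.17, then 3.09 and 6.32, then 2.92 and 5.26 FPKM in OCI-Ly7 and did not pass (0.60 on day 6, adjusted p = 0.254).

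SCARNA17, a guide for U4 and U12, was the other row that rose in OCI-Ly7. SCARNA17 overlaps an annotated exon of SNHG22, which was listed at 0 in every library of each line, so the row may hold reads of that host. It stood at 7.13 and 4.95 FPKM on day 0, at 7.19 and 9.83 on day 3, and at 15.1 and 13.6 on day 6, on 12.3 to 23.3 estimated fragments. Its change on day 6 was 1.14 (SE 0.203, adjusted p = 0.0357), and both day 6 libraries lay above the other 4. SCARNA17 passed in TMD8 on both days, at 0.78 (SE 0.157, adjusted p = 0.0225) and 0.98 (SE 0.157, adjusted p = 0.00488), from 0.736 and 1.35 FPKM on day 0 through 2.56 and 2.38 to 2.83 and 3.14. In TMD8 the row rested on only 2.7 to 6.6 estimated fragments per library. The day 6 effects differed between lines by 0.16 (SE 0.277, adjusted p = 0.695). In OCI-Ly7 the calls of SCARNA9 and SCARNA17 were each lost without either day 0 library or either day 6 library (adjusted p up to 0.145 and 0.247), while their changes stayed at 1.61 to 2.10 and 0.92 to 1.37.

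SCARNA16 was the row called lower in OCI-Ly7. It stood at 4.45 and 6.73 FPKM on day 0 and was listed at 0 in the 4 libraries of days 3 and 6. The day 0 values rest on an estimated 11.1 and 21.7 fragments, and an exact 0 in a table of this kind can be a failed estimate, so no fold is given. Since only day 0 carried the row past the minimum, its calls here are a description and support nothing: its adjusted p was 0.0151 on day 3 and 0.0128 on day 6 (0.0322 and 0.0268 with no minimum). The difference between the lines, which rests on the same rows, had an adjusted p of 0.0191 on day 3 and 0.00333 on day 6. The day 3 call was lost without either day 3 library (adjusted p = 0.0702 and 0.0876) and with a pseudocount of 0.1 (adjusted p = 0.168), and without the second day 0 library the row fell under the minimum. Of 11016 rows tested in OCI-Ly7, 2 were above 0 on day 0 and listed at 0 in all 4 treated libraries, SCARNA16 and TEN1, and in TMD8 there were 0.

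SCARNA16 lies within an annotated exon of SNHG20, a long non-coding host gene, and reads there may be given to either row. SNHG20 was listed at 0 and at 4.35 FPKM in the day 0 libraries of OCI-Ly7, at 5.47 and 4.20 on day 3, and at 3.11 and 3.09 on day 6. TEN1 likewise shares its place with a longer row, TEN1-CDK3, which was at 4.13 to 6.28 FPKM in the 6 OCI-Ly7 libraries. The part of this sharing in the zeros was not tested.

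SCARNA13, which lies in SNHG10 and partly faces GLRX5 on the other strand, varied most between libraries in OCI-Ly7. It stood at 0.376 and 22.0 FPKM on day 0, at 29.5 and 54.1 on day 3, and at 18.5 and 0.310 on day 6. Each of days 0 and 6 had 1 library near 0, and the changes, 2.86 on day 3 and -0.15 on day 6 with SE 1.69 each, did not pass. In TMD8 the same row had pairs of 2.83 and 3.78, then 15.8 and 5.51, then 13.9 and 14.6 FPKM.

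**Figure D3:**
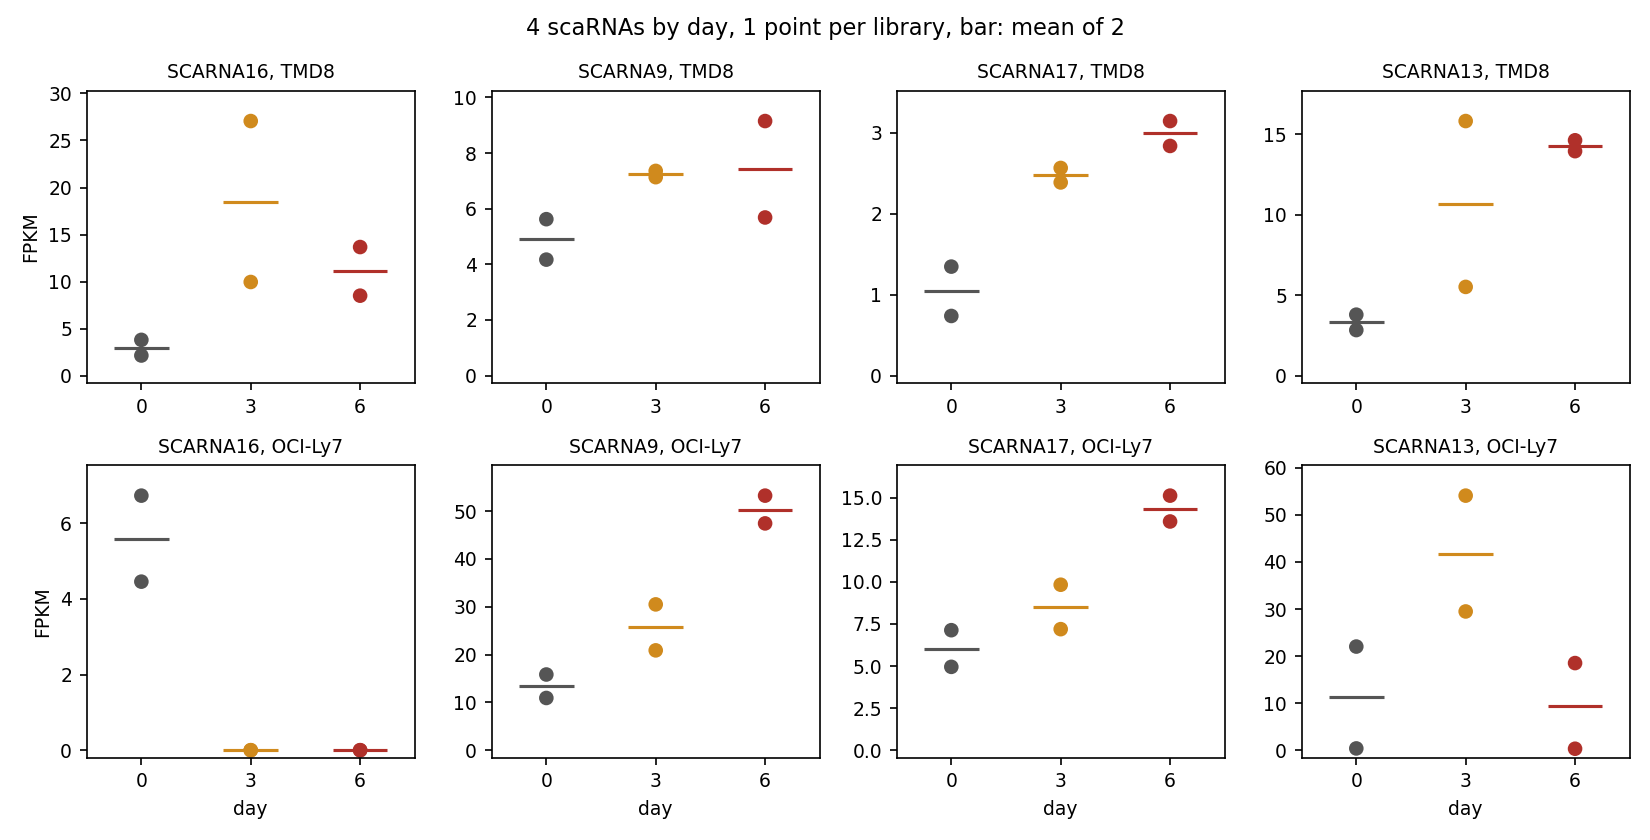
FPKM by day of SCARNA16, SCARNA9, SCARNA17 and SCARNA13 in TMD8 (top) and OCI-Ly7 (bottom), 1 point per library and a bar at the mean, each panel with its own axis from 0. SCARNA16 is above day 0 in the treated TMD8 libraries and listed at 0 in the treated OCI-Ly7 libraries; SCARNA9 reaches 47.4 and 53.3 in OCI-Ly7 on day 6.

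The remaining scaRNAs of OCI-Ly7 did not pass on either day. The most abundant were SCARNA10 at 83.7 and 85.4 FPKM on day 0, 102 and 218 on day 3 and 64.3 and 130 on day 6, SCARNA12 at 77.8 and 63.7, then 65.7 and 113, then 15.9 and 75.9, and SCARNA7 at 34.8 and 22.1, then 36.6 and 72.1, then 31.0 and 58.9. SCARNA5 stood at 18.3 and 22.0, then 17.8 and 45.7, then 12.4 and 24.4 FPKM. In SCARNA12 and SCARNA5 the treated libraries lay on both sides of day 0. SCARNA12 differed between the lines on day 6 by -2.73 (SE 0.85, adjusted p = 0.0458) and SCARNA5 by -2.99 (SE 0.84, adjusted p = 0.0321). SCARNA12 and SCARNA5 rose in TMD8 and changed by -0.99 and -0.19 in OCI-Ly7, where neither passed. Without the first day 6 library of OCI-Ly7, in which SCARNA12 was lowest, its difference was -1.64 (adjusted p = 0.0533). SCARNA21 had the largest positive changes on day 6 among the others, with SCARNA20, at 0.89 each (adjusted p = 0.131 and 0.0997), and SCARNA3 the largest negative one at -1.07 (adjusted p = 0.0782). SCARNA20 and SCARNA3 rested on 1.0 to 8.4 estimated fragments per library. SCARNA20 had a day 0 mean of 0.512 FPKM and passed the minimum through its treated libraries. The filter so favoured a rise, and the change of SCARNA20 supports nothing.

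By the same test, 1 of 24 rows was called different between the lines in the day 3 effect and 6 of 24 in the day 6 effect. The row of day 3, and 1 of those of day 6, was SCARNA16, whose call supports nothing for the reason given above. Over all 9688 rows tested in both lines, 0.0413% differed with OCI-Ly7 higher and 0.0619% with TMD8 higher on day 3. At day 6 these shares were 18.4% and 6.3%. The day 6 rows were SCARNA9 with OCI-Ly7 higher, and RMRP, RPPH1, SCARNA5, SCARNA12 and SCARNA16 with TMD8 higher. The median difference of the 24 rows was -1.84 on day 6, against 0.16 over all rows. The count on day 6 was 1 without the first day 0 library of either line, and 2 without the first day 6 library of either line or the second day 0 library of OCI-Ly7.

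The row RNU86 is SNORD139 in RefSeq, a box C/D small nucleolar RNA that the rule took by its name. It did not pass in either line, at 0.83 in TMD8 (adjusted p = 0.101) and 0.20 in OCI-Ly7 on day 6. The pseudogene RNU6-72P, which GENCODE places in NUMA1 and RefSeq elsewhere, stood at 0.709 to 1.47 FPKM in OCI-Ly7 on 0.6 to 2.0 estimated fragments.

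In TMD8 the scaRNAs with a tested host were called higher or not at all, and the hosts lower or not at all. On day 3 the scaRNA was called higher and its host lower for SCARNA7, SCARNA12, SCARNA21 and SCARNA22. On day 6 this held for SCARNA7, SCARNA10, SCARNA12 and SCARNA18. In every other TMD8 pair the scaRNA, the host or both were not called. Of 14 scaRNAs there with a tested host on the same strand (13 hosts, since SCARNA5 and SCARNA6 share ATG16L1), 8 rose on day 3 and 10 on day 6. Of the 13 hosts 0 rose on either day, while 8 fell on day 3 and 6 on day 6. Of all TMD8 rows 41.5% were called lower on day 3 and 51.7% on day 6, and the hosts' counts are to be read against these shares. The median change on day 6 was 1.71 for the scaRNAs and -0.27 for their hosts, and all 14 scaRNAs changed by more than their host. After median-ratio scaling, 0 hosts passed on day 3, and on day 6, 1 rose (SNHG10) and 3 fell (NCAPD2, WHSC1 and POLA1). NCAPD2 stood at 68.5 and 63.3 FPKM on day 0 and at 33.0 and 36.4 on day 6, a change of -0.91 (adjusted p = 0.00162), while its guest SCARNA10 changed by 2.41. ATG16L1, an autophagy gene, changed by -0.05 on day 6 (adjusted p = 0.777), while SCARNA5 and SCARNA6 changed by 2.80 and 2.21. In OCI-Ly7, with 18 rows and 17 hosts, 9 rows changed by more than their host on day 6 and the medians were 0.01 and -0.24.

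**Figure D4:**
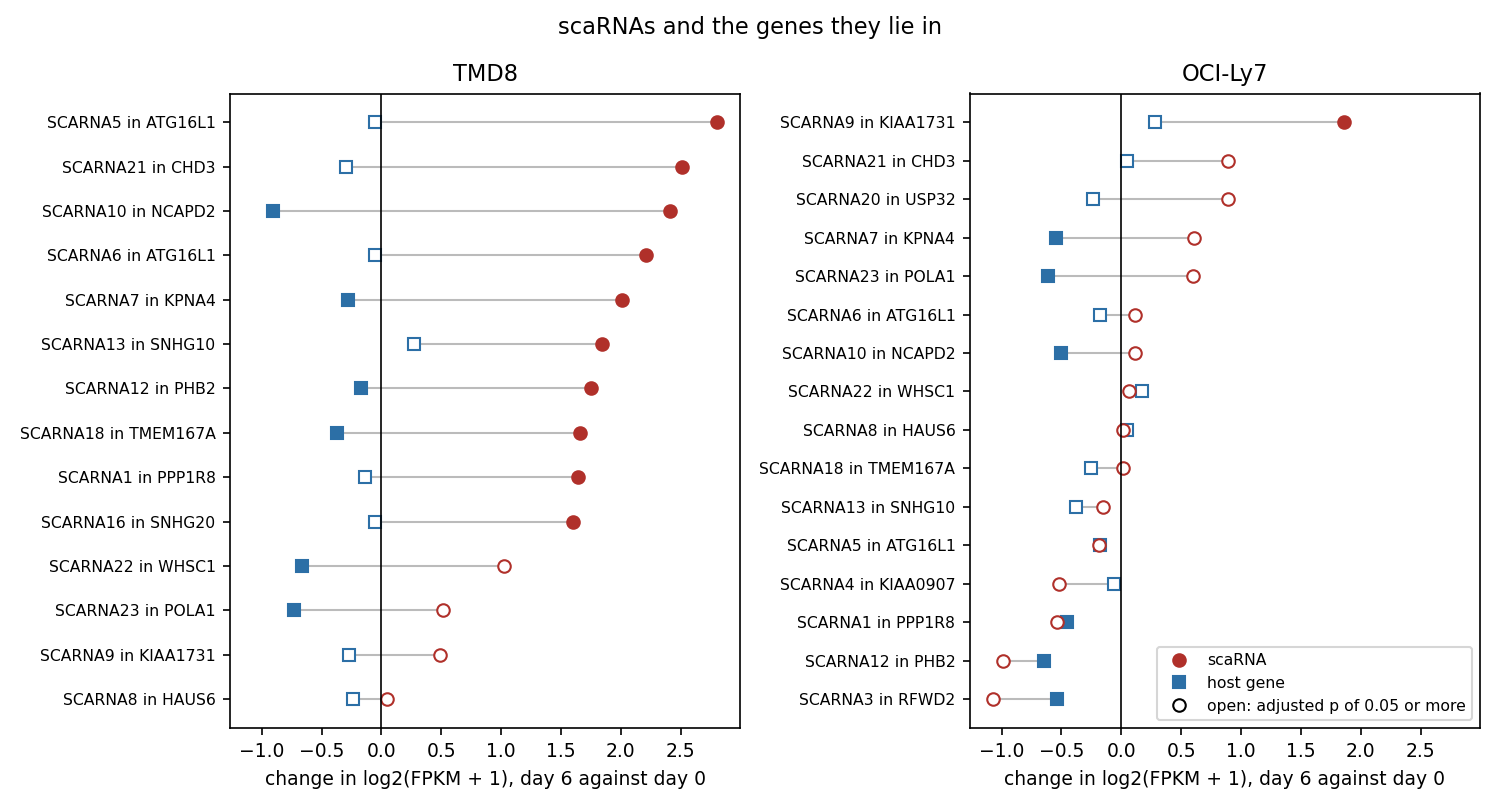
Change of each scaRNA (circles) and of the gene it lies in (squares) on day 6 against day 0 on the log2(FPKM + 1) scale, for TMD8 (left) and OCI-Ly7 (right); open symbols did not pass. SCARNA16 in OCI-Ly7 is left out because it is listed at 0. In TMD8 every circle lies to the right of its square, with NCAPD2 at -0.91 and SCARNA10 at 2.41.

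The calls can be listed by the letters of the guide boxes. In TMD8 on day 6, 5 of 8 scaRNAs with ACA before the end rose, with a median change of 1.62, and 6 of 7 with TGATGA and no such ACA, with a median of 2.01. At day 3 the counts were 5 of 8 and 4 of 7. Of all TMD8 rows 3.89% were called higher on day 6 and 1.5% on day 3. The class with TGATGA holds SCARNA10, which carries both classes of box. The letters therefore do not part guides for methylation from guides for pseudouridylation. No test of the difference between these classes was made.

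Most other sets of RNAs that lack poly(A) tails were also higher in treated TMD8, the vault RNAs being the exception. In TMD8 the row of the 45S pre-ribosomal RNA (RNA45S5) took 6.97% and 10.6% of the estimated fragments on day 0. It took 23.5% to 27.3% in the treated libraries. In OCI-Ly7 it took 14.9% and 13.9% on day 0 and 19.1% to 27.4% after. Reads of the precursor and of mature ribosomal RNA cannot be told apart in this row, so its rise is not one of the precursor alone. The summed FPKM of the 264 SNORD rows was 1126 and 1216 on day 0 in TMD8, 2193 and 1675 on day 3, and 2798 and 2235 on day 6. That of the 106 SNORA rows was 584 and 706, then 2102 and 1044, then 2538 and 1519, and that of the 73 histone rows 428 and 521, then 1219 and 828, then 1263 and 1095. The 24 SCARNA rows summed to 54.5 and 75.9, then 297 and 135, then 296 and 248 FPKM. In these sums the treated libraries did not overlap with day 0. The 4 vault RNA (VTRNA) rows summed to 3.88 and 4.75 FPKM on day 0, 17.5 and 13.9 on day 3, and 19.6 and 1.43 on day 6, so the second library of day 6 lay below both of day 0. TERC, the telomerase RNA, whose cap and ends are finished by some of the same factors, was at 0.606 and 0.809 FPKM on day 0 and at 2.00 to 4.43 in the treated libraries.

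Set against these RNAs, RMRP was higher in treated TMD8 by some measures. Its ratio to the summed SNORD and SNORA rows was 0.457 and 0.571 on day 0 and 0.720 to 1.31 in the treated libraries, with no overlap. The ratio of RPPH1 to the same sum was 0.110 and 0.160, against 0.200 to 0.296. The ratio of RMRP to RNA45S5 was 0.150 and 0.138 on day 0 and 0.206 and 0.0957 on day 3, where it overlapped. On day 6 it was 0.285 and 0.280. That of RPPH1 to RNA45S5 was 0.0361 and 0.0387, then 0.0612 and 0.0267, then 0.0735 and 0.0632, and it also overlapped on day 3. In OCI-Ly7, RMRP per snoRNA sum was 0.813 and 0.617, then 1.07 and 0.741, then 1.10 and 0.941. RMRP per RNA45S5 went the other way there, at 0.226 and 0.21, then 0.186 and 0.208, then 0.154 and 0.19. RPPH1 per snoRNA sum was 0.183 and 0.161 on day 0 in OCI-Ly7 and 0.195 to 0.214 in the treated libraries, also with no overlap. RPPH1 per RNA45S5 was 0.051 and 0.0547, then 0.0341 and 0.0597, then 0.0302 and 0.0412 in that line. What share of RNAs without poly(A) tails each library took up was not measured, and its part in these results was not tested.

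**Figure D5:**
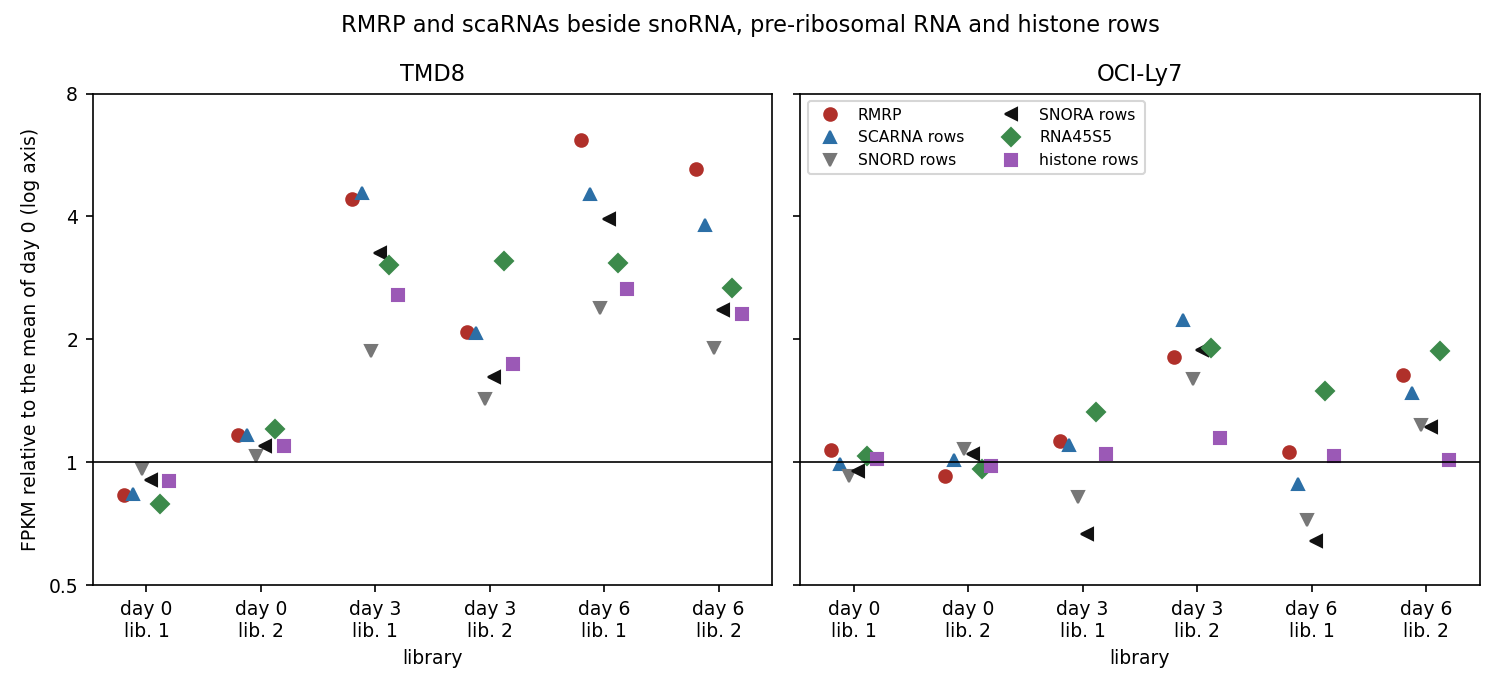
Summed FPKM of each set relative to the mean of its 2 day 0 libraries, on a log axis, by library, for TMD8 (left) and OCI-Ly7 (right). In TMD8 all sets lie above 1 in the 4 treated libraries, RMRP highest in both day 6 libraries; in OCI-Ly7 the SNORD and SNORA sums lie below 1 in the first libraries of days 3 and 6 and above it in the second.

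Within a day, except for day 0 of OCI-Ly7, most rows of the group were higher in the same library. In OCI-Ly7, 27 of 28 were higher in the second library on day 3, the other being SCARNA16 at 0 in both, with a median ratio of 2.14. At day 6, 22 were higher in the second library, with a median ratio of 1.80, and on day 0, 13 of 28 were (0.98). In TMD8, 20 of 24 were higher in the second library of day 0 (median ratio 1.72), 3 on day 3 (0.52) and 7 on day 6 (0.62).

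Proteins that make, hold and finish small RNAs of these and related kinds were taken from 8 lists by role, with 132 genes, of which 131 were measured. They include proteins of the signal recognition particle and of 7SK RNA, whose RNAs would carry RN7S names and had no row here. The list of snRNP proteins is not limited to those of the 4 minor spliceosomal RNAs. In TMD8 on day 3, 0 rose and 63 fell, where 41.5% of all rows were called lower, while after median-ratio scaling 0 passed. At day 6, 8 rose and 44 fell, but 40 rose and 6 fell after median-ratio scaling, so the direction of most calls there follows the scaling. Of all TMD8 rows, 3.89% were called higher and 51.7% lower at day 6, and 15.4% and 13.5% after that scaling. In OCI-Ly7, 0 passed on day 3, and on day 6, 0 rose and 31 fell (2 and 28 after median-ratio scaling). Of all OCI-Ly7 rows, 1.98% were called higher and 9.39% lower at day 6, and 6.71% and 8.05% after that scaling. The OCI-Ly7 count on day 6 was 0 or 1 without any one library of day 0 or day 6, and the TMD8 counts were 0 on day 3 without any one library of days 0 or 3.

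Of the 11 measured proteins of RNase P and RNase MRP, 1 rose and 3 fell in TMD8 on day 6, with a median change of -0.13; after median-ratio scaling 4 rose, 0 fell and the median was 0.21. RPP40 went from 9.75 ± 0.51 to 14.5 ± 0.35 FPKM (SD, n = 2; limma, change 0.53, adjusted p = 0.00523), while POP5 went from 33.5 ± 1.3 to 24.3 ± 1.3 (-0.45, adjusted p = 0.00492; -0.09 and not called after scaling). In OCI-Ly7 RPP40 went from 9.59 ± 0.63 to 6.38 ± 0.73 FPKM (-0.52, limma, adjusted p = 0.0457), which did not pass after scaling. POP1, the large scaffold protein of both enzymes, did not pass in either line, at -0.13 in TMD8 (adjusted p = 0.511; 0.18 after scaling) and -0.49 in OCI-Ly7 (adjusted p = 0.0702). Here and for the lists that follow, the shares called lower over all rows on day 6 were 51.7% in TMD8 and 9.39% in OCI-Ly7 (13.5% and 8.05% after scaling). The shares called higher were 3.89% in TMD8 and 1.98% in OCI-Ly7 (15.4% and 6.71% after scaling). No list was tested against these shares.

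RNA polymerase III makes RMRP, RPPH1 and U6atac, and 1 of its 14 listed subunits rose and 6 fell in TMD8 on day 6 (6 and 0 after scaling). Its subunit POLR3GL went from 9.63 ± 0.063 to 5.51 ± 1.1 FPKM (SD, n = 2; limma, -0.72, adjusted p = 0.00762), and POLR1C, which polymerase I shares, from 34.2 ± 0.28 to 45.9 ± 3 (0.41, adjusted p = 0.00735). In OCI-Ly7, 0 rose and 6 fell, among them POLR3G (-0.58, limma, adjusted p = 0.0369; -0.45 and called after scaling). The SNAPC complex binds the promoters of these genes and of the snRNA genes. Of its 5 subunits, SNAPC5 (-0.80, adjusted p = 0.00424) and SNAPC3 (-0.57, adjusted p = 0.00302) fell in TMD8 on day 6 under both scalings and SNAPC2 on FPKM as given (-0.46, adjusted p = 0.0141). SNAPC1 at -0.24 and SNAPC4 at 0.05 did not pass there. In OCI-Ly7 SNAPC5 fell by 0.64 (adjusted p = 0.0429), which did not pass after scaling, and SNAPC1 to SNAPC4 did not pass. The list of snRNA transcription and end processing as a whole had 17 of 29 lower in TMD8 (4 after scaling, with 2 higher) and 5 of 29 in OCI-Ly7 (4 and 1) on day 6, among them INTS1 of the Integrator complex in TMD8 (-0.78, adjusted p = 0.0027) and INTS7 in OCI-Ly7 (-0.69, adjusted p = 0.0345).

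Of the 17 Cajal body and guide RNA proteins, 3 fell in TMD8 and 6 in OCI-Ly7 on day 6, and 0 rose on FPKM as given, while 4 rose in TMD8 after scaling. COIL, the coilin scaffold of the Cajal body, went from 13.6 to 8.74 FPKM in OCI-Ly7 (-0.58, adjusted p = 0.0347) and did not pass in TMD8 (-0.20, adjusted p = 0.116; 0.13 after scaling). WRAP53, which binds the Cajal body box, did not pass on FPKM as given in TMD8 (-0.06, adjusted p = 0.66), was called higher at 0.28 after scaling, and did not pass in OCI-Ly7. DKC1, the pseudouridine synthase of ACA guides, went from 46.2 ± 0.21 to 26.7 ± 1.9 FPKM in OCI-Ly7 (SD, n = 2; limma, -0.77, adjusted p = 0.0345), and NOLC1, a chaperone of these particles, from 80.2 ± 4.8 to 42.8 ± 2.7 (-0.89, adjusted p = 0.0345). In TMD8 the leading ones were TGS1, the cap methylase, at -0.53 (adjusted p = 0.0131), and PARN, a nuclease that trims tails, at -0.39 (adjusted p = 0.00573), neither called after scaling.

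Of the 17 genes of the Sm ring and the SMN complex, 3 rose and 1 fell in TMD8 on day 6 (9 and 0 after scaling), and 0 rose and 5 fell in OCI-Ly7. SMN1 went from 5.30 and 7.06 FPKM on day 0 to 17.9 and 20.5 on day 6 in TMD8 (1.5, adjusted p = 0.00242), but it has a near-identical copy, SMN2, and its values of 16.3 and 45.3 on day 0 in OCI-Ly7 show how far they can part within a day. GEMIN5 fell in OCI-Ly7 by 0.71 (adjusted p = 0.0347) and STRAP by 0.70 (adjusted p = 0.0345). Of the 25 snRNP proteins, 2 rose and 6 fell in TMD8 (10 and 2 after scaling), led by SNRNP200 at -0.67 (adjusted p = 0.00514), and 5 fell in OCI-Ly7, led by EFTUD2 at -0.92 (adjusted p = 0.0345). In the capping, export and stability list, 7 of 12 fell in TMD8 (0 after scaling, with 2 higher), among them SART3 at -0.45 (adjusted p = 0.00892), and 2 of 12 in OCI-Ly7, NCBP1 at -0.59 (adjusted p = 0.0357) and XPO1 at -0.46 (adjusted p = 0.0454). Of the 6 signal recognition particle proteins, SRP14 rose in TMD8 from 88.1 ± 3.7 to 195 ± 10 FPKM (SD, n = 2; limma, 1.13, adjusted p = 0.00136) and SRP72 fell by 0.26 (adjusted p = 0.0332; 0.10 and not called after scaling), and 0 passed in OCI-Ly7. The difference between the lines was not tested for these genes.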

How the data were processed

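RNA of 12 samples (2 lymphoma lines, 3 days, 2 libraries each) was sequenced. FPKM values were computed by the authors and deposited as 1 table per line, with HISAT, StringTie and build hg19 named in the submitters' processing notes (their versions are not stated there). The labels' protocol names other days than the titles, characteristics and design text, which were followed. Here, log2(FPKM + 1) was tested with limma 3.58.1 (trend) in R 4.3.3 for rows with a mean of at least 1 FPKM. The 3 days of a line shared a spread with 3 residual degrees of freedom. Adjusted p-values (Benjamini-Hochberg) cover all rows tested, with a threshold of 0.05. Fold changes on this scale understate those of low rows. "Scaling" means median-ratio scaling. The line difference was fitted over the 12 libraries. Members and lists were chosen with earlier results of these data known. Named rows were RMRP, RPPH1, the 3 most abundant per class, the 4 largest changes called, and rows that differed between lines; partner genes were up to 2 per list, line and direction, with SNAPC, COIL, WRAP53 and POP1. Hosts and sequences came from GENCODE v29 and RefSeq on GRCh38, not the authors' build; of 28 rows, 26 matched a GENCODE transcript. Whether counting used strand is not given. Estimated fragments cover counting error only. The limma step was tested on simulated data. The alternatives tried were median-ratio scaling, rescaling without small RNA, ribosomal RNA and histone rows, a pseudocount of 0.1, no filter, a mean of at least 5, no trend, a replicate block and leaving out libraries. Values of 1 partner gene and 1 marker gene are not reported here.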

Additional observations from a re-analysis of the deposited data

Results flagged for a closer look

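Each result here had an effect against day 0 that differed between the lines by a test of the difference itself. RMRP (OCI-Ly7 minus TMD8, -2.13), RPPH1 (-2.25), SCARNA12 (-2.73) and SCARNA5 (-2.99) had the larger day 6 effect in TMD8, and SCARNA9 (1.36) in OCI-Ly7, with adjusted p-values from 0.0205 to 0.0482 by limma. SCARNA16 differed at day 3 (adjusted p = 0.0191) and at day 6 (adjusted p = 0.00333); it rose in TMD8 and was listed at 0 in the 4 treated libraries of OCI-Ly7. In OCI-Ly7 this row passed the minimum only through its day 0 libraries, so it had to differ there and these p-values support nothing. Leaving out 1 library at a time, the day 6 difference passed in 8 of 12 fits for RMRP, 5 for RPPH1, 3 for SCARNA12, 6 for SCARNA5 and 8 for SCARNA9, with adjusted p-values up to 0.0771, 0.154, 0.116, 0.11 and 0.0927.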

How the results depend on the processing

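Under median-ratio scaling, 0 members and 0 partner genes were called in TMD8 at day 3 (17 and 63 as given), and 21 partner genes in TMD8 and 13 in OCI-Ly7 between days 3 and 6 (13 and 0). Rescaling without small RNA, ribosomal RNA and histone rows gave 0 members and 0 partner genes in TMD8 at day 3, 24 partner genes at day 6 (52 as given), and in OCI-Ly7 20 at day 6 (31) and 20 between days 3 and 6. Without the filter, TMD8 had 5 members and 31 partner genes at day 3 and 2 members between days 3 and 6, and OCI-Ly7 had 1 partner gene at day 3 and 1 member and 1 partner gene at day 6. The OCI-Ly7 member of day 3, SCARNA16, left 0 calls with a pseudocount of 0.1 and, being under the minimum, with a mean of at least 5, as did the line difference at day 3 with the latter. Without the second libraries of days 3 and 6, an alternative chosen after seeing the data, OCI-Ly7 had 0 members at day 3 and 0 at day 6; each treated day then has 1 library, so these counts say nothing about stability. The cause was not tested in the other cases.

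The replicate numbers were not found to pair the libraries: same-numbered libraries had correlations of their deviations of -0.147 to 0.08 in TMD8 and -0.08 to 0.133 in OCI-Ly7. With a replicate block there were 0 members and 0 partner genes in TMD8 at day 3, 2 partner genes in TMD8 between days 3 and 6, 16 in OCI-Ly7 at day 6, and 0 members in the line difference at day 3.

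Leaving out 1 library, with the lone library of a day taken to vary as the other days did, gave 0 to 20 members for day 3 of TMD8, 8 to 22 for day 6 and 0 to 1 between them, 0 to 1 in OCI-Ly7 at day 3 and 0 to 5 at day 6, and 0 to 1 and 1 to 8 in the line difference at days 3 and 6. Partner genes numbered 0 to 83, 16 to 62 and 1 to 10 in TMD8, and 0 to 1 and 0 to 29 in OCI-Ly7 at days 3 and 6. In OCI-Ly7 the change of RPPH1 ran from -0.22 to 1.11 at day 3 and from -0.22 to 0.55 at day 6, below 0 if the second library of that day was left out. Between days 3 and 6 there, RMRP ran from -0.46 to 0.22 and RPPH1 from -0.94 to 0.39. Both were above 0 if the second day 3 library was dropped (0.22, 0.39) or the first day 6 library (0.19, 0.11), and none of these passed. In the 6 such fits of TMD8, day 6 changes ran from 2.28 to 2.77 for RMRP and from 2.06 to 2.76 for RPPH1. Those of SCARNA5, SCARNA7 and SCARNA12 ran from 2.47 to 3.13, 1.76 to 2.27 and 1.66 to 1.84. Those of SCARNA17 and SCARNA21 ran from 0.76 to 1.2 and from 1.9 to 3.12. SCARNA9L ran from 0.71 to 1.22, but its day 0 mean was under the minimum, so its rise supports nothing.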
